A study of Mus musculus with 8 samples.

Results

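The transcripts of *Csf1* and of 7 receptor genes for colony-stimulating factors and related growth factors were examined: *Csf1r*, *Csf3r*, *Csf2ra*, *Csf2rb*, *Csf2rb2*, *Kit* and *Flt3*. The 8 genes were chosen by name from the 54188 genes of the deposited count table, with earlier results of these data known. All 8 had enough reads to be tested. The RNA-seq libraries came from sanroque mice, a lupus-prone C57BL/6 line homozygous for the san allele of *Rc3h1* (Roquin), which the labels give as female and 20 weeks old. Every mouse carried this allele, and WT cells were not analysed here. CD11b+Gr-1hi cells, labelled G-MDSC, and CD11b+Gr-1lo cells, labelled M-MDSC, were sorted from the spleen (SP) and the BM without any treatment. Each of the 4 groups had 2 libraries, which are named below by the numbers in their labels: 5 and 6 for SP Gr-1hi, 7 and 8 for SP Gr-1lo, 9 and 10 for BM Gr-1hi, and 11 and 12 for BM Gr-1lo. The study describes them as independent biological replicates, but no label ties a library to a mouse. Gr-1 antibody binds both Ly6G and Ly6C, so each subset is a gate on staining and can hold more than 1 cell type.

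Colony-stimulating factors are secreted proteins that direct the survival, division and maturation of myeloid cells. CSF1 (M-CSF) acts through the receptor tyrosine kinase CSF1R (CD115) on monocytes and macrophages, and G-CSF acts through CSF3R on cells of the neutrophil lineage. GM-CSF binds a specific α chain, encoded by *Csf2ra*, which signals together with a β chain shared with the IL-3 and IL-5 receptors, encoded by *Csf2rb*. Mice have an additional β chain, encoded by *Csf2rb2*, that serves IL-3 alone. KIT, the stem cell factor receptor, and FLT3, the FLT3 ligand receptor, are tyrosine kinases of the same family as CSF1R and are best known from progenitors, with KIT also on mast cells and FLT3 also on dendritic cells.

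Total counts were 33453580 to 68316154 per library. *Ly6g*, a neutrophil surface gene, was at 330 to 801 counts scaled to library size (CPM) in the 4 Gr-1hi libraries and at 3.07 to 8.23 CPM in the 4 Gr-1lo libraries, and *Itgam*, which encodes CD11b, was at 734 CPM or more in every library. The sum of 6 mature neutrophil markers was 23174 to 47260 CPM in Gr-1hi and 1481 to 2799 CPM in Gr-1lo libraries, and that of 5 classical monocyte markers was 898 to 2137 CPM and 5624 to 9208 CPM. Against the label of female mice, *Ddx3y*, a Y-linked gene, was at 33.7 to 82.6 CPM in 7 libraries and had no read in library 5. *Xist*, expressed from the inactive X chromosome, had 12032 counts in library 5 and 9898 in library 7 and at most 5 in any other library, so library 7 held reads of both genes. A fit without libraries 5 and 7 is therefore given beside those calls of the 8 genes that involve SP. No such fit is given for the pathway genes, the pseudogene and the marker lists. Libraries 5 and 6 also stood further apart than any other pair: the chi-square of their counts over genes, divided by its degrees of freedom, was 74.3, against 20.7 to 23.7 in the other groups.

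Per length of exon, *Csf3r* outweighed the other members in Gr-1hi cells, whereas Gr-1lo cells held *Csf2ra*, *Csf1r*, *Csf3r* and *Csf2rb* within a narrow range of 188 to 378 TPM. TPM divide counts by the length of all annotated exons of a gene and scale them to a fixed total. For *Csf2rb* that length was 7277 bases, against 4764 in the transcript compared below, so by transcript length its TPM would be higher. In TPM, *Csf3r* was at 4466 ± 1116 in SP Gr-1hi (SD, n = 2) and 2048 ± 448 in BM Gr-1hi, and at 286 ± 5.99 in SP Gr-1lo and 214 ± 18.7 in BM Gr-1lo. It made up 68.6 to 82.7% of the summed TPM of the 8 genes in the Gr-1hi libraries and 18.8 to 21.9% in the Gr-1lo libraries. *Csf1r* made up 1.48 to 2.14% and 21.5 to 28.6%, respectively.

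**Figure D1:**
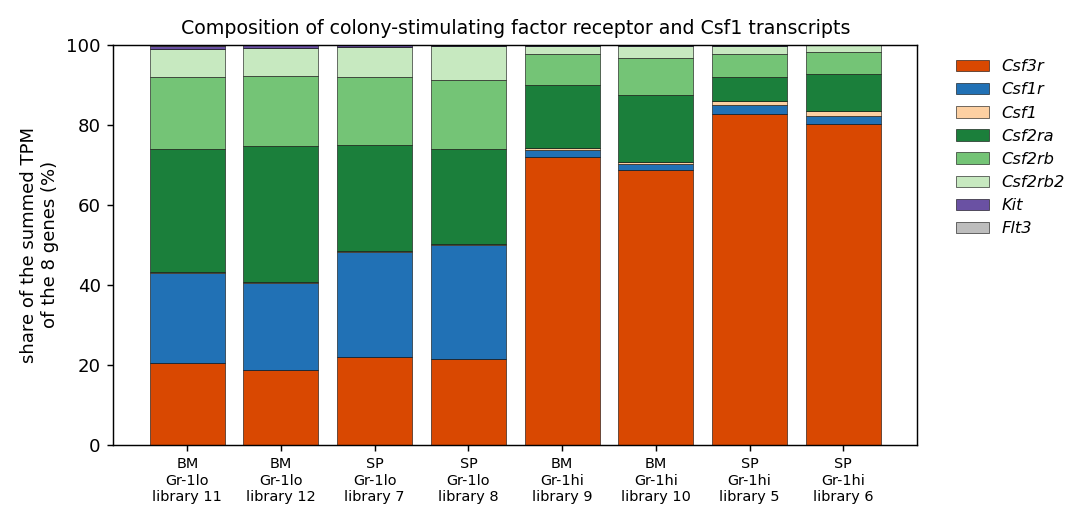
Share of each gene in the summed TPM of the 8 genes (vertical axis, %) in each of the 8 libraries (horizontal axis, by group), with 1 bar per library. *Csf3r* fills 68.6 to 82.7% of the Gr-1hi bars and 18.8 to 21.9% of the Gr-1lo bars, and *Csf1r* at most 2.14% of a Gr-1hi bar.

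The ratio of *Csf3r* to *Csf1r* TPM was 38.7 and 41.7 in the SP Gr-1hi libraries and 45.4 and 46.2 in the BM Gr-1hi libraries. In Gr-1lo cells the ratio was 0.745 and 0.839 in SP and 0.897 and 0.873 in BM, so that *Csf1r* was the higher of the pair in every Gr-1lo library. The 3 genes of the GM-CSF and IL-3 receptor chains together took 49.3 to 58.6% of the summed TPM in Gr-1lo libraries and 13.9 to 29.1% in Gr-1hi libraries. *Kit* and *Flt3* were the lowest receptors, with group means of 4.48 to 10.2 TPM and 0.373 to 2.44 TPM.

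**Figure D2:**
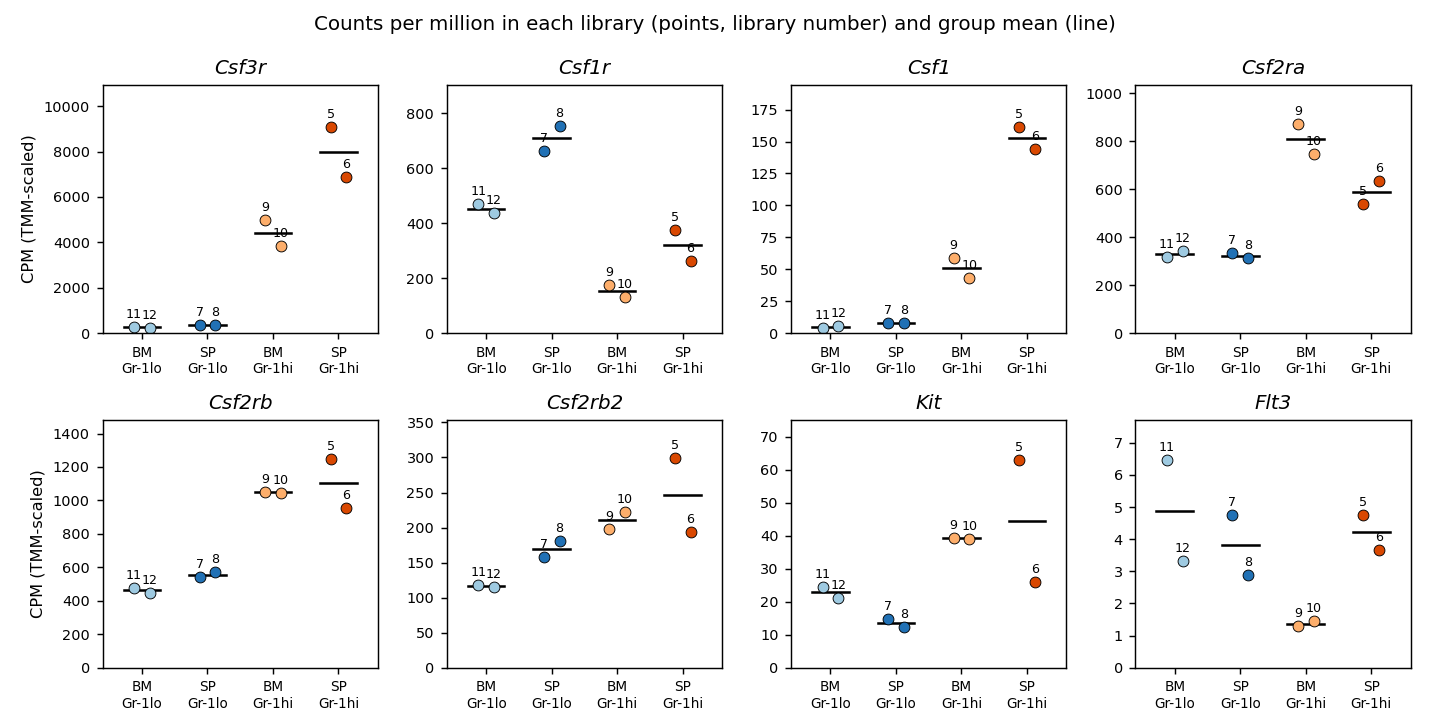
CPM of each of the 8 genes (vertical axes, linear from 0, each with its own scale) in the 4 groups (horizontal axes), with 1 point per library marked with its number and a line at the group mean. *Csf3r* and *Csf1* are high in both Gr-1hi groups, *Csf1r* is high in both Gr-1lo groups, and the 2 points of SP Gr-1hi lie far apart for *Kit*.

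*Csf1*, the ligand of CSF1R, was a transcript of Gr-1hi cells and was most abundant in those of the SP. It was at 161 and 144.5 CPM in SP Gr-1hi libraries 5 and 6, at 59.0 and 43.2 CPM in BM Gr-1hi libraries 9 and 10, at 8.17 and 7.75 CPM in SP Gr-1lo libraries 7 and 8, and at 4.18 and 5.42 CPM in BM Gr-1lo libraries 11 and 12. No 2 of the 4 groups overlapped, and the order was SP Gr-1hi, BM Gr-1hi, SP Gr-1lo and BM Gr-1lo. The level in Gr-1hi was 10.6 times that in Gr-1lo in BM (log2 FC 3.41 ± 0.18 SE, edgeR adjusted p = 6.33e-07) and 19.2 times in SP (log2 FC 4.26 ± 0.19, edgeR adjusted p = 6.22e-07). Within Gr-1hi cells, SP exceeded BM 2.99 times (log2 FC 1.58 ± 0.17, edgeR adjusted p = 0.00043), and this held in each fit that left out 1 library, with log2 FCs of 1.27 to 1.75. In Gr-1lo cells the log2 FC of SP over BM was 0.73 ± 0.18, which did not pass the test (edgeR adjusted p = 0.0526). In these sorted pools, more transcript per cell cannot be told apart from more cells of a type that holds it.

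*Csf1r* had the opposite order of subsets, high in Gr-1lo and lower in Gr-1hi, while in either subset its values were higher in SP than in BM. The SP Gr-1lo libraries were at 663 and 754 CPM, the BM Gr-1lo libraries at 471 and 436 CPM, the SP Gr-1hi libraries at 375 and 264 CPM and the BM Gr-1hi libraries at 175 and 133 CPM. Those 4 ranges did not overlap. Gr-1hi was below Gr-1lo by 2.95 times in BM (log2 FC -1.56 ± 0.19, edgeR adjusted p = 8.04e-05) and by 2.22 times in SP (log2 FC -1.15 ± 0.19, edgeR adjusted p = 0.000594). The SP increase in Gr-1hi cells was 2.08 times (log2 FC 1.05 ± 0.19, edgeR adjusted p = 0.00434), just past the FC threshold of 2. It fell to a log2 FC of 0.69 without library 5, 0.77 without library 10 and 0.79 without libraries 5 and 7, each with an adjusted p at most 0.0385 but an FC under 2. In Gr-1lo cells the log2 FC was 0.64 ± 0.18 (edgeR adjusted p = 0.0957).

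The annotated pseudogene *Csf1r-ps* (GRCm38.p6, chr19:60052114-60081625) went with *Csf1* rather than with *Csf1r*. It was at 9.70 to 20.9 CPM in the 4 Gr-1hi libraries and at 0.378 to 1.06 CPM in the 4 Gr-1lo libraries. Its Gr-1hi against Gr-1lo log2 FC was 4.48 ± 0.24 in BM (edgeR adjusted p = 5.47e-07) and 4.26 ± 0.21 in SP (edgeR adjusted p = 1.02e-06), and *Csf1r* itself was lower in Gr-1hi cells in both tissues. With 20 to 693 counts per library it was far below the 3211 to 65106 counts of *Csf1r*. Reads that could fall to either locus were not examined.

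*Csf3r*, the G-CSF receptor gene, was among the most abundant transcripts of Gr-1hi cells. It was at 9073 and 6879 CPM in SP Gr-1hi, at 4973 and 3830 CPM in BM Gr-1hi, at 347 and 351 CPM in SP Gr-1lo and at 264 and 237.7 CPM in BM Gr-1lo. Its TPM ranked between 15 and 52 within the 4 Gr-1hi libraries and between 506 and 741 within the 4 Gr-1lo libraries. None of the 4 groups overlapped another. Gr-1hi exceeded Gr-1lo 17.5 times in BM (log2 FC 4.13 ± 0.19, edgeR adjusted p = 2.75e-07) and 22.8 times in SP (log2 FC 4.51 ± 0.19, edgeR adjusted p = 5.20e-07). SP exceeded BM 1.81 times in Gr-1hi cells (log2 FC 0.86 ± 0.16, edgeR adjusted p = 0.00565), which passed the p threshold and not the FC threshold of 2. In Gr-1lo cells the log2 FC was 0.48 ± 0.16 (edgeR adjusted p = 0.153). Testing TPM after quantile normalization by limma gave the Gr-1hi increase a log2 FC of 1.28 (adjusted p = 0.016), which would be called.

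The GM-CSF receptor chains were higher in Gr-1hi cells, but by much less than *Csf3r*. *Csf2ra*, the α chain gene, was at 872 and 745 CPM in BM Gr-1hi, 539 and 635 CPM in SP Gr-1hi, 317 and 342 CPM in BM Gr-1lo, and 335 and 311 CPM in SP Gr-1lo. It was the only one of the 8 genes whose Gr-1hi values were lower in SP than in BM without overlap, and the 2 Gr-1lo groups overlapped. The log2 FC of SP over BM in Gr-1hi was -0.46 ± 0.12 (edgeR adjusted p = 0.0167), a change of less than 2-fold. Gr-1hi exceeded Gr-1lo 2.45 times in BM (log2 FC 1.29 ± 0.12, edgeR adjusted p = 1.16e-05) and 1.82 times in SP (log2 FC 0.86 ± 0.12, edgeR adjusted p = 0.000182). The interaction, defined as the Gr-1hi against Gr-1lo log2 FC in SP minus that in BM, was -0.43 ± 0.16 for *Csf2ra* and did not pass the test (edgeR adjusted p = 0.109).

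*Csf2rb*, the common β chain gene, was at 1249 and 956 CPM in SP Gr-1hi and at 1052 and 1046 CPM in BM Gr-1hi, which overlapped. It was at 540 and 573 CPM in SP Gr-1lo and at 478 and 449 CPM in BM Gr-1lo, below every Gr-1hi library. The Gr-1hi against Gr-1lo log2 FC was 1.18 ± 0.13 in BM (edgeR adjusted p = 3.40e-05) and 0.99 ± 0.13 in SP (edgeR adjusted p = 0.000132), on either side of an FC of 2. Between SP and BM its log2 FC was 0.07 ± 0.13 in Gr-1hi (95% interval -0.21 to 0.36, edgeR adjusted p = 0.688) and 0.26 ± 0.13 in Gr-1lo (95% interval -0.02 to 0.55, edgeR adjusted p = 0.287).

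*Csf2rb2*, the IL-3-specific β chain gene, followed *Csf2rb* at a lower level. It was at 299 and 194 CPM in SP Gr-1hi, 198 and 223 CPM in BM Gr-1hi, 157 and 181 CPM in SP Gr-1lo and 118 and 116 CPM in BM Gr-1lo. In CPM, the Gr-1hi groups overlapped each other and lay above both Gr-1lo groups. In TPM the subsets overlapped in both tissues, at 132 and 78.8 in SP Gr-1hi against 100 and 110 in SP Gr-1lo. In BM they were at 71.7 and 76.7 TPM in Gr-1hi against 77.5 and 74.5 in Gr-1lo. Over the alternative fits, the log2 FC of Gr-1hi over Gr-1lo in CPM or TPM ran from 0.07 to 0.79 in SP and from 0.45 to 0.996 in BM. Its Gr-1hi against Gr-1lo log2 FC was 0.85 ± 0.18 in BM (edgeR adjusted p = 0.00282) and 0.54 ± 0.18 in SP (edgeR adjusted p = 0.0264), both under an FC of 2. SP exceeded BM by a log2 FC of 0.53 ± 0.18 in Gr-1lo cells (edgeR adjusted p = 0.154) and 0.23 ± 0.18 in Gr-1hi cells (edgeR adjusted p = 0.368).

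The 2 β chain genes lie side by side on chromosome 15 (GRCm38, *Csf2rb* at chr15:78325752-78353847 on the plus strand and *Csf2rb2* at chr15:78282507-78305721 on the minus strand) and are near-identical copies. Over 2628 aligned coding bases of their GENCODE M21 transcripts, 95.2% were identical, and the longest identical run was 242 bases. A read end of 101 bases could come from either transcript at 7.1% of its positions. The reads were paired, and how far this affects the split of counts between the 2 genes was not examined. One of the stretches that sets them apart follows, 60 coding bases of each gene on its own strand, with the 13 positions that differ in capitals.
*Csf2rb* (GRCm38, chr15:78338893-78338952, plus strand): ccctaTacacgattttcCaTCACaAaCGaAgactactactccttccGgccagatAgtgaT
*Csf2rb2* (GRCm38, chr15:78294379-78294438, minus strand): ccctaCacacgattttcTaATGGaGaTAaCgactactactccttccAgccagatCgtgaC
The ratio of *Csf2rb2* to *Csf2rb* counts was 0.239 and 0.203 in SP Gr-1hi, 0.188 and 0.213 in BM Gr-1hi, 0.292 and 0.316 in SP Gr-1lo and 0.247 and 0.258 in BM Gr-1lo. It was lower in every Gr-1hi library than in any Gr-1lo library.

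*Kit* was higher in Gr-1hi than in Gr-1lo cells of the SP, a difference that was smaller without library 5. The SP Gr-1hi libraries were at 62.9 and 26.1 CPM, the BM Gr-1hi libraries at 39.4 and 39.2 CPM, the BM Gr-1lo libraries at 24.5 and 21.2 CPM and the SP Gr-1lo libraries at 14.7 and 12.3 CPM. In CPM, the 2 SP Gr-1hi values enclosed those of BM Gr-1hi, and the 2 Gr-1lo groups lay below both. The log2 FC of Gr-1hi over Gr-1lo was 1.72 ± 0.37 in SP (edgeR adjusted p = 0.00469) and 0.78 ± 0.36 in BM (edgeR adjusted p = 0.0881). Without library 5 the SP value was 0.93 (edgeR adjusted p = 0.000502), under an FC of 2. SP against BM in Gr-1hi gave 0.18 ± 0.36 with all libraries (edgeR adjusted p = 0.732) and the opposite sign without library 5, at -0.67 (edgeR adjusted p = 0.0151). In Gr-1lo cells that log2 FC was -0.76 ± 0.36 (edgeR adjusted p = 0.307).

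*Flt3* was scarce everywhere, with 35 to 315 counts per library, and was lowest in BM Gr-1hi cells. It was at 1.31 and 1.44 CPM in BM Gr-1hi, 4.76 and 3.67 CPM in SP Gr-1hi, 4.75 and 2.90 CPM in SP Gr-1lo and 6.45 and 3.31 CPM in BM Gr-1lo. The BM Gr-1hi libraries were below all others, and the remaining 3 groups overlapped one another. The log2 FC of Gr-1hi over Gr-1lo was -1.82 ± 0.40 in BM (edgeR adjusted p = 0.0029) and 0.15 ± 0.35 in SP (95% interval -0.66 to 0.97, edgeR adjusted p = 0.71). SP exceeded BM 3.06 times in Gr-1hi cells (log2 FC 1.62 ± 0.40, edgeR adjusted p = 0.0169), and in Gr-1lo cells the log2 FC was -0.36 ± 0.35 (edgeR adjusted p = 0.61). With 35 counts in each of the BM Gr-1hi libraries, this increase was no longer called without library 5, 9 or 10, for which the adjusted p was 0.0964, 0.095 and 0.0746, nor without libraries 5 and 7 (adjusted p = 0.0684). By limma on TPM after quantile normalization its log2 FC was 0.60 (adjusted p = 0.0923).

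The interaction passed the test and the FC threshold for *Flt3* alone, at a log2 value of 1.98 ± 0.53 (edgeR adjusted p = 0.0406), which was 1 of 8 members against 9.74% of the 17650 genes tested, 7.74% with a positive value. It was lost without libraries 5 and 7 (2.19, adjusted p = 0.0807) and in 5 of the 8 fits that left out 1 library (library 5, 8, 9, 10 or 11). *Csf1* had an interaction of 0.85 ± 0.24 (edgeR adjusted p = 0.0453), with an FC of 1.81, so that 2 of the 8 passed the p threshold alone, against 16.4% of all genes. *Csf1* reached the FC threshold by limma on TPM (1.033) and without library 9 or 11 (1.007 and 1.029), and *Flt3* was not called in those fits. Without libraries 5 and 7 the value for *Csf1* was 0.84 (adjusted p = 0.205), and its adjusted p was also above 0.05 in the 6 other fits without 1 library. The other 6 genes did not pass, with values from -0.43 for *Csf2ra* to 0.94 for *Kit*.

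**Figure D3:**
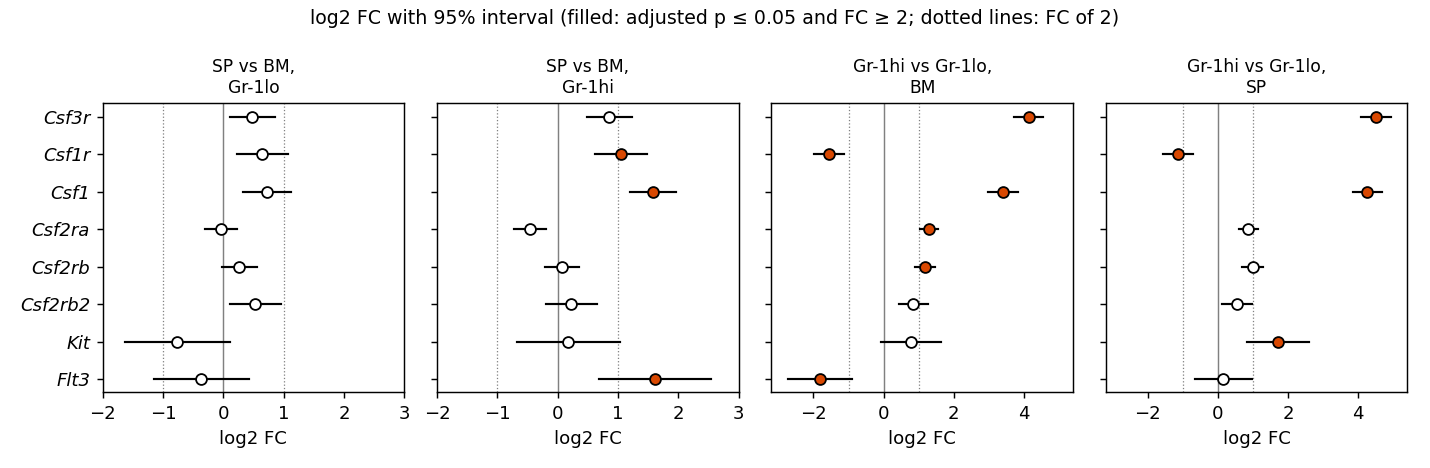
log2 FC (horizontal axes) of each of the 8 genes with its 95% interval in 4 comparisons, positive where the first-named group is higher, with filled points for genes that passed both thresholds (adjusted p ≤ 0.05 and FC ≥ 2). No gene is filled for SP against BM in Gr-1lo, 3 are in Gr-1hi, 6 for Gr-1hi against Gr-1lo in BM and 4 in SP. The 2 left panels share an axis range and the 2 right panels another.

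Counted together, 0 of the 8 genes were called between SP and BM in Gr-1lo cells (adjusted p ≤ 0.05 and FC ≥ 2), where edgeR called 4.06% of all genes tested, 3.84% as higher and 0.215% as lower in SP. Without the FC threshold it was still 0 of the 8, against 5.58% of all genes. DESeq2 called 0 as well, and 4 of the 8 had an unadjusted p under 0.05 in edgeR, all with higher values in SP (*Csf1*, *Csf1r*, *Csf2rb2* and *Csf3r*), against 11.8% of all genes in that direction and 20.1% in either. The fit without libraries 5 and 7 called 0 of the 8 as well. The median log2 FC of the 8 genes was 0.37, against -0.01 for all genes tested. The libraries of the 2 groups did not overlap for 6 of the 8, against 59.7% of all genes.

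In Gr-1hi cells, 3 of the 8 rose in SP (*Csf1*, *Csf1r* and *Flt3*) and none fell, against 14.0% of all genes that were called higher and 15.5% called in either direction. Without the FC threshold, *Csf3r* and *Csf2ra* passed too, which made 5 of the 8 against 34.0% of all genes. The median log2 FC of the 8 was 0.54, against 0.03 for all genes. The libraries did not overlap for 5 of the 8, against 67.8% of all genes. *Csf1* alone was still called without library 5, without library 10 and without libraries 5 and 7. Library 5 was above library 6 for 7 of the 8 genes, all but *Csf2ra*, and its removal lowered the log2 FC of those 7 genes, turning the sign for *Csf2rb*, *Csf2rb2* and *Kit*. By RLE scaling or DESeq2, *Csf1r* had a log2 FC of 0.98 and was not called.

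**Figure D4:**
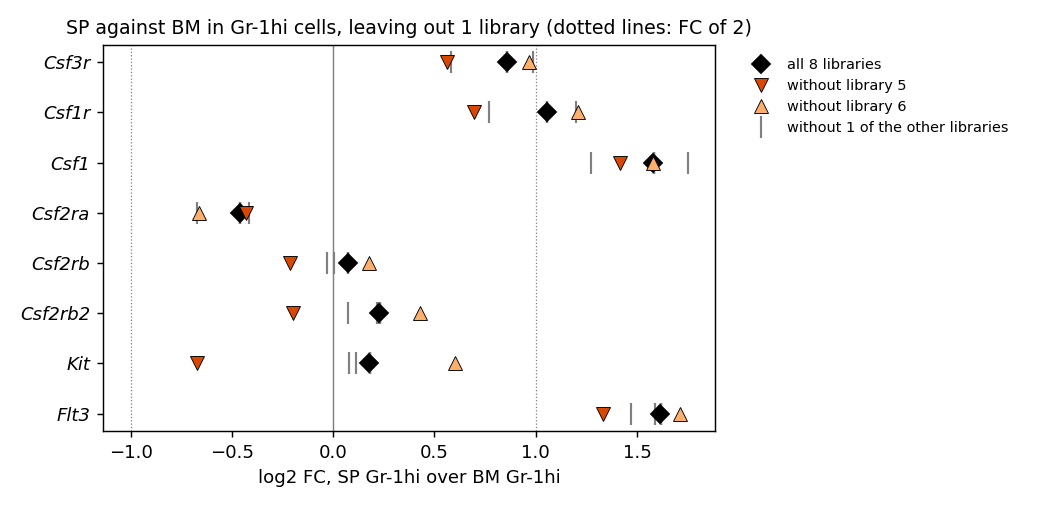
log2 FC of SP Gr-1hi over BM Gr-1hi (horizontal axis) of each of the 8 genes with all 8 libraries (diamonds), without library 5 (triangles pointing down), without library 6 (triangles pointing up) and without 1 of the other libraries (ticks). *Csf1* stays between 1.27 and 1.75, and without library 5 *Kit* moves from 0.18 to -0.67.

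Between Gr-1hi and Gr-1lo cells of the BM, 6 of the 8 were called, where 57.3% of all genes were called. *Csf1*, *Csf2ra*, *Csf2rb* and *Csf3r* were higher in Gr-1hi, 4 of the 8 against 24.2% of all genes, and *Csf1r* and *Flt3* lower, 2 of the 8 against 33.1%. *Csf2rb2* passed the p threshold alone, which 75.7% of all genes did. In CPM, the libraries did not overlap for any of the 8, as for 88.9% of all genes. With limma on TPM after quantile normalization, *Csf2ra*, *Csf2rb* and *Flt3* were under an FC of 2. In the SP, 4 of the 8 were called against 49.6% of all genes, with *Csf1*, *Csf3r* and *Kit* higher (22.3% of all genes) and *Csf1r* lower (27.4%). All but *Flt3* passed the p threshold alone, 7 of the 8 against 71.4% of all genes. The same 7 did not overlap between the subsets in CPM, against 86.2%. Without libraries 5 and 7, these 4 were still called in SP, with log2 FCs of 4.20 for *Csf1*, 4.27 for *Csf3r*, 1.06 for *Kit* and -1.54 for *Csf1r*, and *Csf2ra* was called in addition at 1.006, just past an FC of 2. At the stricter thresholds the study used for this comparison (adjusted p under 0.01 and an FC over 8), *Csf1* and *Csf3r* were called in both tissues, 2 of the 8, against 16.7% of all genes in BM and 7.37% in SP. The median log2 FC of the 8 genes was 1.01 in BM and 0.92 in SP. The median of all genes was -0.17 in BM and -0.09 in SP with TMM scaling and -0.03 and 0.04 with RLE scaling. No member changed direction in either tissue between TMM, RLE and upper-quartile scaling. In mean TPM the order of the subsets was the reverse of that in CPM for *Csf2rb2* and *Kit* in BM and for *Flt3* in SP. *Csf2rb2* was at 74.2 TPM in BM Gr-1hi against 76.0 in BM Gr-1lo, and *Kit* at 7.38 against 7.91. *Flt3* was at 1.38 TPM in SP Gr-1hi against 1.84 in SP Gr-1lo. The comparisons between subsets share their libraries with those of SP against BM.

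The ligands of these receptors other than CSF1 were near or at the limit of detection. Over all 8 libraries together there were 2 reads of *Csf2* (GM-CSF), 7 of *Csf3* (G-CSF), 1 of *Il34*, the second ligand of CSF1R, 0 of *Il3*, 2 of *Il5* and 53 of *Kitl*, the KIT ligand. A floor of 3 counts corresponded to 0.0348 to 0.124 CPM per library, for counting error only. *Flt3l*, the FLT3 ligand gene, was the exception, at 29.3 ± 1.57 CPM in SP Gr-1hi, 28.7 ± 4.37 in BM Gr-1hi, 17.2 ± 0.329 in SP Gr-1lo and 15.7 ± 0.717 in BM Gr-1lo. Its log2 FC of Gr-1hi over Gr-1lo was 0.87 ± 0.12 in BM (edgeR adjusted p = 0.000196) and 0.77 ± 0.12 in SP (edgeR adjusted p = 0.000474). Both passed the p threshold but were under an FC of 2, and *Flt3l* was not called in any comparison.

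Of 72 other genes of these pathways (ligands, partner chains, kinases, adaptors, inhibitors, transcription factors, responding genes and proteases), 66 could be tested. In SP against BM Gr-1lo cells, 2 were higher and 1 lower, a share close to that of all genes. The 2 that were higher are inhibitors. *Myc*, a growth-promoting transcription factor gene, fell from 17.8 ± 0.427 CPM in BM to 7.89 ± 1.29 CPM in SP (log2 FC -1.18 ± 0.16, edgeR adjusted p = 0.00404). In Gr-1hi cells, 12 of the 66 were higher in SP and 1 lower, including 5 of the 12 transcription factors and 4 of the 11 inhibitors, where 14.0% of all genes were higher and 1.48% lower.

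Large increases in SP Gr-1hi cells were those of *Irf8*, *Myc* and *Socs3*. *Irf8*, which encodes a factor required for monocyte and dendritic cell development, rose from 7.93 ± 3.61 to 48.8 ± 3.13 CPM (log2 FC 2.63 ± 0.32, edgeR adjusted p = 0.00137). *Myc* rose from 1.25 ± 0.19 to 6.51 ± 0.809 CPM (log2 FC 2.37 ± 0.21, edgeR adjusted p = 0.000231). *Socs3*, the feedback inhibitor that binds CSF3R, rose from 270.3 ± 9.67 to 1130 ± 157 CPM (log2 FC 2.06 ± 0.17, edgeR adjusted p = 0.000208). *Myc* thus fell in SP Gr-1lo cells and rose in SP Gr-1hi cells, with an interaction of 3.55 ± 0.26 (edgeR adjusted p = 0.00153). The interaction was also called as positive for *Irf8* (3.02), *Klf4* (2.37) and *Ccnd2* (2.00) among others, 6 of the 66 with *Myc*. It was called as negative for *Cebpe* (-1.38) and *Dok2* (-1.18). The share called was 12.1% of the 66, against 9.74% of all genes (7.74% positive and 2.00% negative).

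Between the subsets, 25 of the 66 were higher and 11 lower in BM Gr-1hi cells, and 27 higher and 9 lower in SP Gr-1hi cells. Of all genes, 24.2% were higher and 33.1% lower in BM, and 22.3% and 27.4% in SP, so the 36 of 66 called in either tissue were close to the share of all genes. The kinases and STATs had 7 higher and 1 lower of 12 in either tissue, a description of the list without a test. *Mmp9*, which encodes gelatinase B of neutrophil granules, was at 11580 ± 669 CPM in BM Gr-1hi against 39.0 ± 20.2 CPM in BM Gr-1lo, and at 6064 ± 995 against 26.5 ± 2.51 CPM in SP. *Osm*, a STAT5-responsive cytokine gene, was at 514 ± 131 against 36.9 ± 3.16 CPM in BM and at 398 ± 243 against 31.4 ± 4.38 CPM in SP. *Cish*, a STAT5-induced inhibitor gene, was at 18.2 ± 4.25 against 0.88 ± 0.492 CPM in BM and at 21.6 ± 4.50 against 2.95 ± 0.765 CPM in SP. All 3 rose in Gr-1hi cells of both tissues, with log2 FCs of 2.85 to 8.21. *Cebpe*, a granulocyte maturation factor gene, was also higher in BM Gr-1hi (log2 FC 2.18 ± 0.25, edgeR adjusted p = 7.06e-05), and *Egr2*, an early response factor gene, was higher in Gr-1hi of both tissues. *Egr2* was at 3.83 ± 0.564 against 0.229 ± 0.11 CPM in BM (log2 FC 4.06 ± 0.82, edgeR adjusted p = 0.0024) and at 8.91 ± 7.92 against 1.10 ± 0.393 CPM in SP (log2 FC 2.98 ± 0.65, edgeR adjusted p = 0.00408), where its 2 Gr-1hi libraries lay far apart.

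On the Gr-1lo side were *Elane*, the neutrophil elastase gene of promyelocytes, and the monocyte factor genes *Klf4* and *Irf8*. *Elane* was at 659 ± 34.3 CPM in BM Gr-1lo against 3.54 ± 0.75 in BM Gr-1hi, and at 362 ± 146 against 1.14 ± 0.462 CPM in SP. *Klf4* was at 172 ± 19.1 against 2.24 ± 1.27 CPM in BM (log2 FC -6.28 ± 0.32, edgeR adjusted p = 7.66e-07) and at 110 ± 12.6 against 7.38 ± 0.888 CPM in SP (log2 FC -3.90 ± 0.28, edgeR adjusted p = 6.72e-06). *Irf8* fell in BM Gr-1hi with a log2 FC of -5.16 ± 0.35 (edgeR adjusted p = 5.85e-06). *Gab1*, a docking protein gene, had 577 counts in BM Gr-1lo and 3 in BM Gr-1hi, a log2 ratio of 6.59 with a 95% counting interval of 5.04 to 8.87.

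Markers of other cell types moved with tissue and subset as well. Between SP and BM, 14.0% of all genes were called higher and 1.48% lower in SP Gr-1hi cells. In Gr-1lo cells those shares were 3.84% and 0.215%. The summed level of 7 B cell markers was 399 and 264 CPM in SP Gr-1hi libraries 5 and 6, 49.1 and 62.0 CPM in SP Gr-1lo, 14.99 and 12.7 CPM in BM Gr-1hi and 7.38 and 9.14 CPM in BM Gr-1lo, and all 7 were called higher in SP than in BM in Gr-1hi cells. Of 7 T cell markers, 6 were higher in SP Gr-1hi, at a sum of 97.1 and 59.8 CPM against 9.46 and 6.03 CPM in BM. The 5 plasma cell markers were also all higher in SP Gr-1hi, at 376 and 277 CPM against 101 and 99.9 CPM. *Xbp1* made up most of that sum, and it was at 215 to 275 CPM in the Gr-1lo libraries. In Gr-1lo cells, 6 of the 7 B cell, all 7 T cell and 4 of the 5 plasma cell markers were also called higher in SP than in BM, and none lower. Library 5 was above library 6 for these 3 lists and for 7 of the 8 genes. Other lists had library 5 below library 6. The 4 erythroid markers summed to 117 and 400 CPM in libraries 5 and 6, against 20.0 and 23.9 CPM in BM Gr-1hi. Nonclassical monocyte markers were at 328 and 568 CPM, classical monocyte markers at 898 and 1214 CPM and mature neutrophil markers at 23174 and 29592 CPM. The part of any of these cell types in the results for *Csf1r*, *Kit* and *Flt3* was not tested.

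Of 7 dendritic cell markers, 4 were higher and 1 lower in SP than in BM Gr-1hi cells, against 14.0% and 1.48% of all genes. In Gr-1lo cells 4 were higher and none lower, against 3.84% and 0.215% of all genes. In Gr-1hi cells the 7 summed to 113 and 110 CPM in SP against 39.6 and 26.1 CPM in BM. Most of that sum was *Itgax*, and *Dnase1l3* and *Ccr7* were higher as well, at 16.8 and 13.4 CPM against 0.523 and 0.784 CPM and at 6.78 and 4.08 CPM against 0.15 and 0.165 CPM. The defining genes *Zbtb46* and *Xcr1* were at 2.56 CPM or less in every library, with *Xcr1* at 0 in libraries 10 and 12, *Zbtb46* at 0 in library 9 and *Ccr7* at 0 in libraries 11 and 12. At these low levels *Xcr1* was higher in SP, at 2.56 and 2.55 CPM in SP Gr-1hi against 0.037 and 0 CPM in BM Gr-1hi. In Gr-1lo it was at 0.485 and 0.753 CPM in SP against 0.0205 and 0 CPM in BM. *Siglech* went the other way in Gr-1hi, at 0.422 and 0.319 CPM in SP against 0.935 and 1.32 CPM in BM. Of 9 markers of splenic macrophages, 4 were higher in SP Gr-1hi than in BM Gr-1hi, against 14.0% of all genes. In Gr-1lo cells 4 were higher in SP, against 3.84% of all genes, and none was lower in either subset. The 9 summed to 1130 and 950 CPM in SP Gr-1hi against 680 and 610 CPM in BM Gr-1hi, and 307 and 343 CPM in SP Gr-1lo against 271 and 226 CPM in BM Gr-1lo. *Slc40a1* alone made up 825 and 676 CPM of the SP Gr-1hi sums, against 498 and 462 CPM in BM Gr-1hi, less than a 2-fold difference. *Spic* was at 9.61 and 8.74 CPM in SP Gr-1hi against 1.35 and 1.28 CPM in BM Gr-1hi. *C1qa* was at 21.1 and 17.4 against 7.78 and 7.64 CPM, *C1qb* at 25.7 and 23.5 against 11.6 and 7.97 CPM, and *C1qc* at 21.6 and 21.9 against 12.6 and 7.35 CPM. *Cd163* was at 1.28 CPM or less in every library. Of 5 markers of nonclassical monocytes, 2 were higher in SP than in BM in either subset, against 14.0% of all genes in Gr-1hi and 3.84% in Gr-1lo. The 5 summed to 328 and 568 CPM in SP Gr-1hi, 272 and 290 CPM in BM Gr-1hi, 467 and 447 CPM in SP Gr-1lo and 278 and 327 CPM in BM Gr-1lo. *Ace* among them was at 49.3 and 35.8 CPM in SP Gr-1hi against 4.86 and 9.99 CPM in BM Gr-1hi, and at 48.4 and 39.95 CPM against 2.72 and 1.13 CPM in Gr-1lo. The part of any of these cell types in the SP values of *Csf1* and *Csf1r* was not tested.

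For *Kit*, the 6 mast cell and basophil markers summed to 7.21 to 8.71 CPM in SP Gr-1hi and 14.2 to 19.8 CPM in BM Gr-1hi, with *Tpsab1* at 0 in 7 libraries. The 6 stem and progenitor markers summed to 2.78 to 9.01 CPM over all libraries, with *Mecom* at 0 in 7 of them. Both lists were lower in SP Gr-1hi than in BM Gr-1hi, without overlap, and *Kit* overlapped between these groups. In Gr-1lo cells the mast cell and basophil sums were 2.61 to 3.31 CPM in SP and 4.28 to 4.78 CPM in BM. Of the 4 markers tested, 3 were called higher in Gr-1hi than in Gr-1lo in SP and 4 in BM. Of all genes, 22.3% were called higher in SP and 24.2% in BM. Of the 4 stem and progenitor markers tested, 1 was higher and 2 were lower in SP, and 1 was higher and 3 were lower in BM. The part of mast cells, basophils or progenitors in the *Kit* values was not tested. The 5 primary granule markers, by contrast, were 1200 to 3289 CPM in Gr-1lo libraries and 12.4 to 43.3 CPM in Gr-1hi libraries.

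The shape of each gene's profile over the 8 libraries was compared by the root mean square difference of log2 CPM, after centring each gene on its own mean. Among the 8 genes, *Csf2rb* and *Csf2rb2* were closest at 0.24 log2 units, followed by *Csf2ra* and *Csf2rb* at 0.28 and *Csf1* and *Csf3r* at 0.42. *Kit* was 0.43 to 0.55 from the 3 GM-CSF and IL-3 receptor chain genes, and *Csf1r* had *Flt3* as its closest member at 0.58. *Csf1* and its receptor gene were 2.56 apart. Among 11358 other genes of at least 5 CPM in some group, the nearest to *Csf3r* was *Slc40a1*, the iron exporter ferroportin, at 0.16. *Csf1* was nearest to *Gm17455* (0.26), *Gm11346* (0.32) and *Csf1r-ps* (0.33). *Csf1r* was nearest to *Il10ra*, an IL-10 receptor chain gene (0.12), *Itgb1* (0.14) and *Tesk1* (0.14), and *Csf2rb* to *Lnpep* (0.06), *Acvr1b* (0.07) and *Stat3* (0.07). The nearest gene was *Cep85l* for *Csf2ra* (0.03), *Gpr137b* for *Csf2rb2* (0.13), *E330034L11Rik* for *Kit* (0.23) and *Celsr1* for *Flt3* (0.26). These distances are descriptions over libraries that also differ in subset and tissue.

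RefSeq promoter windows, 250 bases before to 50 bases after the start of transcription, were at hand for *Csf1*, *Csf3r*, *Csf2ra*, *Csf2rb2*, *Kit* and *Flt3* (GRCm38.p6). They were searched on both strands for GAGGAA, the core bound by PU.1, a factor known to act on myeloid receptor genes, which 28.3% of 32851 promoter windows held. Windows of 4 of the 6 genes held it, and those of *Csf1* and *Flt3* did not. The matches follow, read in the direction of each gene with the motif in capitals, to set *Csf3r*, the most abundant of them in Gr-1hi cells, beside the others. The entry TTCCTC is the motif on the opposite strand.
*Csf3r* (chr4:126024563-126024588, plus strand): tccttcctgaGAGGAAggggctgtct
*Csf2ra* (chr19:61228412-61228441, minus strand, 2 adjoining matches): cctgcagatGAGGAAGAGGAAgcgggagac
*Csf2rb2* (chr15:78305873-78305898, minus strand): ctgtgtctgcTTCCTCcagagaagtc
*Csf2rb2* (chr15:78305677-78305702, minus strand): cactggcaacTTCCTCaatctgctct
*Kit* (chr5:75574754-75574779, plus strand): agagtgctagGAGGAAgaggatccag
The motifs TTGCNNAA of C/EBP factors and TGTGGT of RUNX factors, held by 10.8% and 16.8% of the windows, were found in none of the 6. *Spi1*, the gene of PU.1, named here after its values were seen, was at 803 ± 59.7 CPM in SP Gr-1hi, 747 ± 11.1 in BM Gr-1hi, 316 ± 25.99 in SP Gr-1lo and 261 ± 11.3 in BM Gr-1lo. A match describes the letters of a window and does not show binding.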

How the data were processed

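Counts per gene were deposited for 8 libraries as whole numbers without normalization. According to the submitters' notes and the methods, the authors checked stranded paired reads with FastQC, aligned them with STAR to GRCm38 (mm10) and counted them with featureCounts. Of 54188 genes, 34018 had a count. The 17650 genes kept by filterByExpr were fitted in edgeR 4.0.16 (R 4.3.3) by robust quasi-likelihood with TMM scaling and 1 term per group, with 4 residual degrees of freedom, and p values were adjusted by Benjamini-Hochberg over all of them. A gene was called where its adjusted p was 0.05 or less and its FC 2 or more. CPM are TMM-scaled. TPM were computed here from exon lengths of GENCODE M21 (53947 genes). SDs are over 2 libraries. Alternatives used RLE or upper-quartile scaling, no filter, DESeq2 1.42.0, the 4 libraries compared, limma 3.58.1 on quantile-normalized log2(TPM + 1), other thresholds, or fewer libraries.

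The 8 genes and all lists were chosen with earlier results of these data known. All 8 are named. Of the pathway list, called genes whose higher group reached 5 CPM are named, up to 4 in each direction of each comparison (1 gene that this rule selects is not reported here), and for each of the 8 up to 3 genes of the most similar profile. Of the marker lists, those of mature neutrophils, classical and nonclassical monocytes, B cells, T cells, plasma cells, erythroid cells, dendritic cells, splenic macrophages, mast cells and basophils, stem and progenitor cells and primary granules are reported.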

Additional observations from a re-analysis of the deposited data

Results flagged for a closer look

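For 2 of the 8 genes the difference between Gr-1hi and Gr-1lo cells was not the same in SP and BM by the test of the interaction. *Csf1* had an interaction of 0.85 on the log2 scale (SE 0.24, edgeR adjusted p = 0.0453), as its excess in Gr-1hi was 19.2 times in SP and 10.6 times in BM. *Flt3* had an interaction of 1.98 (SE 0.53, edgeR adjusted p = 0.0406), with a log2 FC of Gr-1hi over Gr-1lo of 0.15 in SP and -1.82 in BM. Over the alternatives the adjusted p ran from 0.000154 to 0.205 for *Csf1* and from 6.84e-06 to 0.138 for *Flt3*. The call of *Flt3* was lost without library 5, 8, 9, 10 or 11, without libraries 5 and 7 and by limma on TPM, and 16.4% of all genes tested passed it for the interaction whatever the FC.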

How the results depend on the processing

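Over 40 log2 FCs of the 8 genes and their alternatives, 543 of 592 values kept their direction and their side of the thresholds, 23 were no longer called, 11 became called and 15 changed sign. No member was called for SP against BM in Gr-1lo under any alternative, including each fit without 1 library (0 to 0). For SP against BM in Gr-1hi the number called was 1 to 3 without 1 library, 1 without libraries 5 and 7 and 5 when the FC threshold was dropped. For Gr-1hi against Gr-1lo, BM had 6 to 6 called without 1 library, 3 by limma on TPM and 2 at the stricter thresholds, and SP had 3 to 5, 7 without the FC threshold and 2 at the stricter thresholds. For the interaction, 0 to 2 were called without 1 library (0 without library 5, 8 or 10 and 2, *Flt3* and *Kit*, without library 6), 0 without libraries 5 and 7 and 2 without the FC threshold.

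The values that changed sign were those of *Csf2ra* for SP against BM in Gr-1lo (0.0069 with upper-quartile scaling, 0.013 without the filter, and -0.084 to 0.027 without 1 library), of *Flt3* there (-0.76 to 0.20 without 1 library), of *Csf2rb* in Gr-1hi (-0.21 to 0.18 without 1 library, below 0 without library 5 or 10, and -0.12 without libraries 5 and 7), of *Csf2rb2* in Gr-1hi (-0.20 to 0.43 without 1 library, below 0 without library 5, and -0.10 without libraries 5 and 7), of *Kit* in Gr-1hi (-0.033 by limma on TPM, -0.67 to 0.60 without 1 library, below 0 without library 5, and -0.58 without libraries 5 and 7), and of *Flt3* for Gr-1hi against Gr-1lo in SP (-0.19 to 0.52 without 1 library, below 0 without library 5 or 8). *Csf2rb* was called in SP with RLE scaling (1.123), upper-quartile scaling (1.07), DESeq2 (1.123) and without library 6 (1.14) or 8 (adjusted p = 0.00144), and *Kit* in SP was not called without the filter (adjusted p = 0.0651). *Csf1r* in SP had a log2 FC of -0.94 without library 6. The cause was not tested.

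The paper describes the BM cells as autologous to those of the spleen. No paired analysis was possible because the groups share no replicate numbers and no label ties libraries to a mouse. Library 5 had no *Ddx3y* read, and every BM library had at least 52.5 CPM of it. With 2 libraries per group, a fit without 1 library assumes that the lone library varies like the other groups.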
